A study of Homo sapiens with 24 samples.

Results

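Small nucleolar RNAs (snoRNAs) and small Cajal body RNAs (scaRNAs) were taken by gene symbol: 192 of the 18417 genes measured start with SNORD, SNORA or SCARNA. They comprised 115 box C/D snoRNAs (SNORD), 61 box H/ACA snoRNAs (SNORA) and 16 scaRNAs. This class was chosen with earlier results of these data known, and within it the members were taken by symbol. Within the class, measured levels were used only where a gene had several probe sets, as 5 members did (SCARNA9, SCARNA9L, SCARNA17, SNORA10 and SNORA15). The probe set was then selected on its mean level, the highest being kept. The members were 60 to 421 nucleotides long, with a median of 94. RNA was hybridised to 24 Affymetrix Human Gene 1.0 ST arrays, 3 in each of 8 groups, and a level is given throughout as the deposited log2 value.

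Box C/D snoRNAs pair with ribosomal or spliceosomal RNA and direct the methyltransferase fibrillarin to a ribose, while box H/ACA snoRNAs direct the pseudouridine synthase dyskerin to a uridine. scaRNAs do the same for spliceosomal RNAs in Cajal bodies. In human cells nearly all of them are cut out of introns of longer host transcripts, which are often genes of ribosome synthesis or noncoding RNAs whose spliced product is quickly degraded, and a few guide no known modification or act in the cutting of the ribosomal RNA precursor.

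Both lines, SUM149PT and SUM190PT, come from inflammatory breast cancer and are labelled ER(-), that is without oestrogen receptor, and carry mutant p53 (M237I in SUM149PT and Q317X in SUM190PT). Each line received vehicle (ethanol with DMSO), 10 nM 17β-estradiol, CG-1521, or both agents for 48 h. CG-1521 is a hydroxamic acid inhibitor of histone deacetylases and was given at 7.5 µM to SUM149PT and 5 µM to SUM190PT. SUM149PT was kept in Ham's F-12 with serum, insulin and hydrocortisone, whereas SUM190PT was plated in serum and then moved to a serum-free medium with transferrin, triiodothyronine, selenite and albumin. Line, medium and dose therefore change together and cannot be told apart. Each line is a single established model. The epithelial markers EPCAM, CDH1, KRT8, KRT18 and KRT19 had vehicle means of 10.19 or more in both lines, against 2.98 and 2.83 for the leukocyte gene PTPRC and 4.51 and 4.48 for the endothelial gene CDH5. The labels do not say that the 3 arrays of a group came from separate cultures, so the p-values measure only the spread between arrays, which may be technical.

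The arrays limit what a snoRNA value means. RNA was purified on RNeasy Mini columns, which retain long RNA better than short RNA, and was amplified with the NuGEN pico protocol before labelling. A probe inside a snoRNA also lies inside its host's unspliced transcript, so the mature small RNA and its precursor cannot be told apart here. Near-identical copies (SNORD116, SNORD115, SNORD14, and SCARNA9 with SCARNA9L) share sequence, and how signal divides between copies is uncertain. With bulk RNA, fewer cells of a kind and less RNA per cell cannot be told apart either. Correlations between arrays of a group over all genes ran from 0.981 to 0.996. The third vehicle array of SUM190PT had the lowest, 0.981 and 0.984 with its partners, which reached 0.991 with each other, and the third estradiol array was next lowest, so counts in SUM190PT are also given without this pair of outlying arrays.

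Replicate spread was larger for the small RNAs than for genes in general. The pooled standard deviation within groups had a median of 0.209 over the members and 0.153 over all genes, and 80.2% of members lay above the all-gene median. In the brightest 25% of genes the medians were 0.274 for 31 members and 0.143 for all genes. The host genes spread less, with a median of 0.138, and 173 microRNA genes had 0.156. SNORD14E spread most, 0.742 over both lines, but 0.282 in SUM149PT and 1.01 in SUM190PT. SNORD14C followed at 0.515, then SNORD30 at 0.477, SCARNA9 at 0.462 and SNORD28 at 0.426. Members of an array also moved together: in the second array of SUM149PT with both agents the median member lay 0.152 below its group mean and 21.4% of members lay above it, while the median over all genes was 0.005.

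The members' positions show how they are housed. In RefSeq's GRCh38.p14 annotation 189 of the 192 lie within the span of 106 longer genes, and 91 of these have a host that the arrays measured, 70 hosts in all. SNORA7B, SNORD13 and SNORD32B lie in none. Host genes known for snoRNAs often begin with a run of pyrimidines, the 5′ terminal oligopyrimidine tract of the translation machinery. The first bases of 8 hosts are shown because they, or small RNAs in them, are described below, as 10 bases before and 20 bases from the RefSeq start, 5′ to 3′ on the gene's strand. Capitals mark a tract at the start, searched on that strand as a C followed by at least 4 bases that are each C or T.
RPL13A (SNORD35A), chr19:49487598-49487627, plus strand: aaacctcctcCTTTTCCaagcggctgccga
RABGGTB (SNORD45A and SNORD45B), chr1:75786246-75786275, plus strand: cctgctctctCCTTTCCCTgttagacatgg
ZFAS1, chr20:49278632-49278661, plus strand: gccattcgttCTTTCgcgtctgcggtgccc
SNHG5 (SNORD50A), chr6:85678714-85678743, minus strand: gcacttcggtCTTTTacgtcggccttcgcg
SNHG1 (SNORD28 and SNORD30), chr11:62855866-62855895, minus strand: gagattcgttctcatttttctactgctcgt
GAS5 (SNORD44 and SNORD74 to SNORD81), chr1:173869026-173869055, minus strand: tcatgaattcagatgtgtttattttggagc
HSPA8 (SNORD14C and SNORD14E), chr11:123062117-123062146, minus strand: ggaaaccggtctcattgaactcgcctgcag
SNHG14 (SNORD115 and SNORD116), chr15:24823598-24823627, plus strand: gtcctcctgcgccgacctcgaatgcggtcc

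Of 88 host genes with an entry, 27 held such a tract (30.7%), against 1404 of all 27305 genes (5.14%). Among ribosomal protein hosts 10 of 12 held it, and among the other hosts 17 of 76 (22.4%). SNHG1, GAS5, HSPA8 and SNHG14 had no such letters at the annotated start, which says nothing about starts that the annotation does not list.

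CG-1521 raised more of the small RNAs than it lowered in both lines. In SUM149PT 44 of the 192 members rose (22.9%) and 11 fell (5.73%) by limma at an adjusted p under 0.05, where 14.4% of all genes rose and 19.9% fell (34.3% called). The falls numbered 6 without the third CG-1521 array, 7 without the third vehicle array and 5 with all 24 arrays in one model. The median member changed by 0.069 on the log2 scale and the median gene by −0.002. In SUM190PT 58 members rose (30.2%) and 1 fell (0.521%), where 8.32% of all genes rose and 8.26% fell (16.6% called), and the medians were 0.346 and −0.048. At least a 2-fold rise was reached by 7 members in SUM149PT and 25 in SUM190PT. The share of all genes at that cut is not given here, so these 2 counts do not set the members apart.

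When the pair of outlying SUM190PT arrays were left out, 55 members rose there and 0 fell. The arrays of drug and vehicle separated completely for 65 members in SUM149PT (33.9%, against 44.6% of all genes) and for 89 in SUM190PT (46.4%, against 31.5%). The count depended on which array was left out: without the first CG-1521 array 35 members rose, and without the second vehicle array 39.

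**Figure D1:**
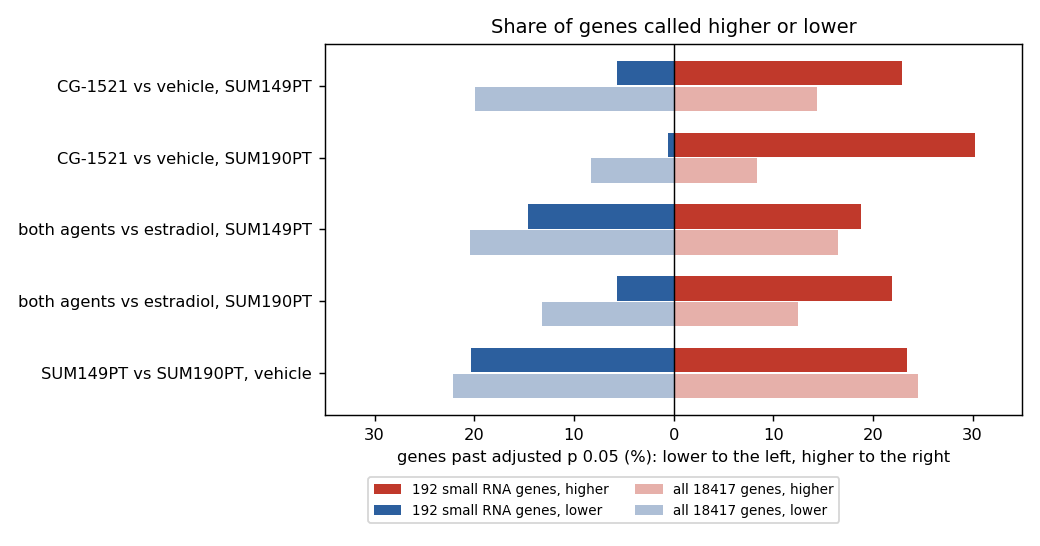
Percent of the 192 small RNA genes and of all 18417 genes called higher or lower (limma, adjusted p under 0.05) in 5 comparisons, as bars on a percent axis from 0. With CG-1521 alone 22.9% of small RNAs were higher in SUM149PT and 30.2% in SUM190PT, against 14.4% and 8.32% of all genes.

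By family, in SUM149PT CG-1521 raised 23 and lowered 6 of 115 SNORD genes, raised 13 and lowered 5 of 61 SNORA genes, and raised 8 of 16 SCARNA genes with none lower. The median change was 0.063, 0.059 and 0.356 in that order. In SUM190PT 30 SNORD genes rose and 0 fell, 22 SNORA genes rose and 1 fell, and 6 SCARNA genes rose and 0 fell, with medians of 0.275, 0.476 and 0.369. By brightness, of the 31 members in the brightest 25% of genes 21 rose and 1 fell in SUM149PT, while among all genes of that class 23.6% rose and 37.5% fell. Of the 76 members in the dimmest 25% of genes 4 rose and 2 fell in SUM149PT. The share of all genes of that class is not given here, so these counts are not a result about dim members.

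The box C/D RNAs of the imprinted 15q11 region differed by cluster in level and in calls. SNORD116 RNAs are orphan guides expressed from the paternal copy of SNHG14, and their loss causes most features of Prader-Willi syndrome, while the SNORD115 RNAs from the same host are a largely neuronal cluster. Of 20 SNORD116 genes 9 rose with CG-1521 in SUM149PT and none fell, with a median of 0.281, and 6 rose at least 2-fold. Of 20 SNORD115 genes 0 were called, with changes from −0.15 to 0.12, and 0 passed an unadjusted p of 0.05. The SNORD115 group means stayed between 2.17 and 3.33 in both lines, against 2.31 to 9.88 for SNORD116 in SUM149PT and 2.29 to 6.91 in SUM190PT. The SNORD115 values thus lay at the bottom of the scale, where a change may not be readable, so their lack of calls does not show a lack of response. The same holds for the dim SNORD116 copies. The median SNORD116 group mean was 3.39 in SUM149PT and 3.1 in SUM190PT. The 2 SNORD113 and 4 SNORD114 genes of the 14q32 region lay between 2.46 and 3.75 in both lines, and SNORD114-26 alone was called, with a fall of 0.28 in SUM149PT.

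SNORD116-1 stood at 4.18, 3.69 and 3.85 in the 3 vehicle arrays of SUM149PT and at 5.44, 5.19 and 5.36 with CG-1521. All 3 treated arrays lay above all 3 controls, a rise of 1.42 (SE 0.164, limma adjusted p = 4.51e-06). In SUM190PT it read 3.47, 3.48 and 4.05 in vehicle and 4.26, 3.20 and 4.18 with CG-1521, where the arrays overlapped and the difference was 0.21 (adjusted p = 0.604). The response of SUM149PT exceeded that of SUM190PT by 1.21.

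SNORD116-21 showed the same split at a higher level. It read 7.24, 6.86 and 7.05 in SUM149PT vehicle and 8.24, 8.20 and 8.45 with CG-1521, a rise of 1.25 (SE 0.171, adjusted p = 2.61e-05). In SUM190PT it stayed at 2.89, 2.77 and 2.62 in vehicle and 2.93, 3.11 and 2.79 with the drug, so both groups lay at the bottom of the scale, where a change may not be readable. The drug response differed between the lines by 1.06.

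SNORD116-15 was the brightest of the named copies and the SNORD116 copy called in both lines. It read 9.09, 8.65 and 8.40 in SUM149PT vehicle and 9.96, 9.74 and 9.94 with CG-1521, a rise of 1.17 (SE 0.138, adjusted p = 5.74e-06). In SUM190PT it read 6.00, 5.47 and 5.44 in vehicle and 7.04, 6.34 and 6.58 with the drug, a rise of 1.02 (adjusted p = 0.0244). The treated arrays lay above the controls in both lines.

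SNORD116-14, SNORD116-20 and SNORD116-24 rose in SUM149PT by 1.08, 1.07 and 1.18. SNORD116-20 read 6.89, 6.99 and 7.07 in vehicle and 8.22, 7.82 and 8.11 with CG-1521, and SNORD116-24 read 6.01, 5.22 and 5.81 and then 6.78, 6.94 and 6.86. The other copies called were SNORD116-6 at 0.60, SNORD116-23 at 0.39 and SNORD116-13 at 0.36, and 11 of the 20 did not pass the test. With estradiol present, 14 of 20 copies rose from estradiol to both agents, with a median of 0.466, led by SNORD116-1 at 1.27, SNORD116-24 at 1.21 and SNORD116-15 at 1.08. In that comparison 1 SNORD115 gene was called, also higher. In SUM190PT no SNORD116 gene was called between estradiol and both agents.

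**Figure D2:**
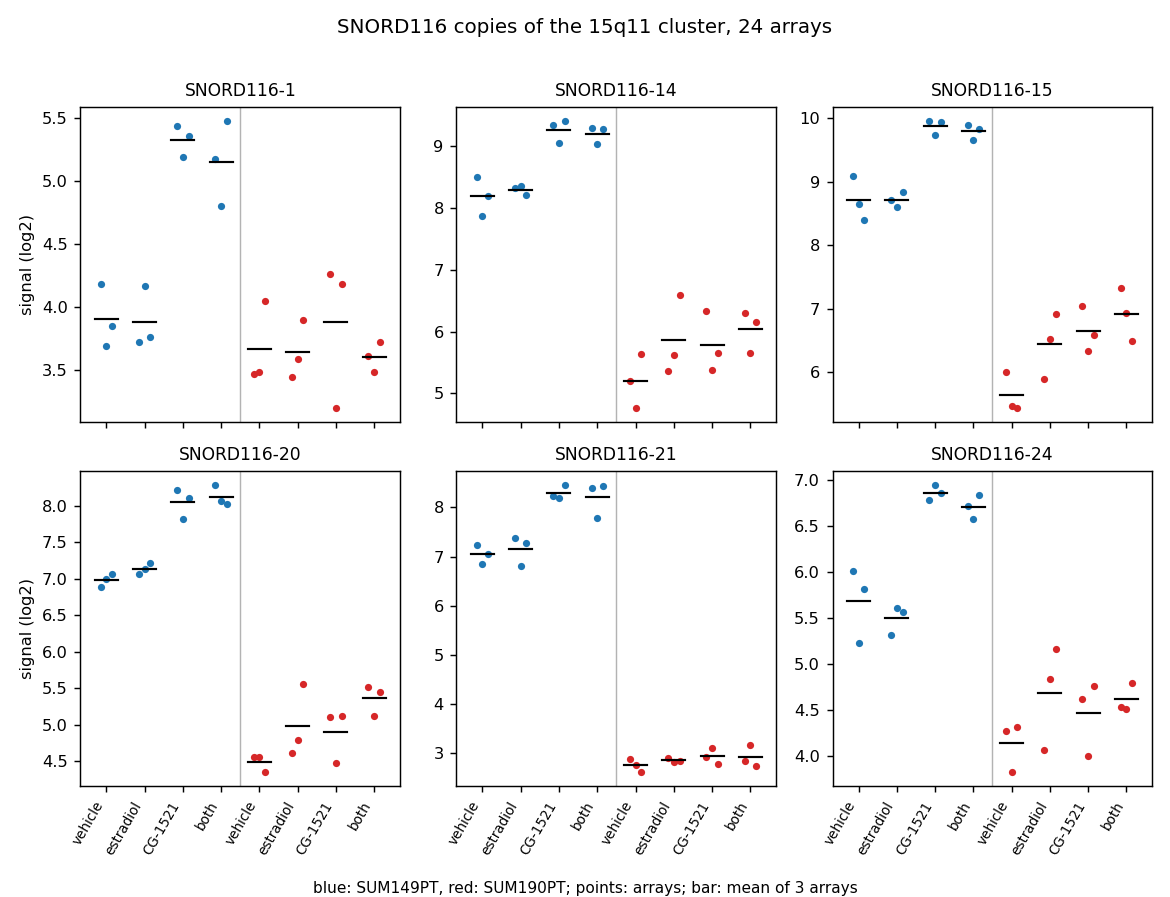
Level (log2) of SNORD116-1, SNORD116-14, SNORD116-15, SNORD116-20, SNORD116-21 and SNORD116-24 in each of the 24 arrays, by group, with SUM149PT in blue and SUM190PT in red and a bar at the mean of 3 arrays. SNORD116-21 lies between 6.86 and 7.24 in SUM149PT vehicle and between 2.62 and 2.89 in SUM190PT vehicle, and rises with CG-1521 in SUM149PT.

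Largest of all in SUM190PT were the rises of SNORD14E and SNORD14C, copies of U14, which pairs with the 18S part of the ribosomal RNA precursor and is needed to cut it. SNORD14E read 6.56, 6.45 and 4.46 in vehicle and 9.02, 7.55 and 9.74 with CG-1521, a rise of 2.94 (SE 0.658, adjusted p = 0.00924). The third vehicle array lay far below its partners, and all treated arrays lay above all controls. SNORD14C read 8.20, 7.86 and 6.82 and then 10.24, 8.89 and 10.79, a rise of 2.35 (SE 0.471, adjusted p = 0.00503).

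In SUM149PT both U14 copies also rose. SNORD14C went from 7.15, 7.27 and 7.12 to 7.82, 7.60 and 7.98, by 0.62 (SE 0.099, adjusted p = 0.000118), and SNORD14E from 4.63, 4.32 and 4.92 to 5.40, 4.96 and 5.13, by 0.55 (adjusted p = 0.0277). The drug response in SUM149PT minus that in SUM190PT was −1.73 for SNORD14C (adjusted p = 0.0202) and −2.40 for SNORD14E. Without the third vehicle array of SUM190PT the latter was −1.72 (adjusted p = 0.0781), and the call also ended without the first (−2.28) or the third (−1.91) CG-1521 array of SUM190PT, and without the second CG-1521 array (−2.30) or the third vehicle array (−2.25) of SUM149PT. The 2 RNAs lie in introns of HSPA8, the constitutive heat shock protein 70, whose own level fell by 0.21 in SUM149PT and rose by 0.53 in SUM190PT.

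Since both U14 copies moved together, the 250 bases before the HSPA8 start are shown (chr11:123062137-123062386, minus strand, 5′ to 3′), with capitals for matches to GAANNTTC, the core of the heat shock element, which reads the same on both strands and was searched without overlaps with other motifs.
HSPA8: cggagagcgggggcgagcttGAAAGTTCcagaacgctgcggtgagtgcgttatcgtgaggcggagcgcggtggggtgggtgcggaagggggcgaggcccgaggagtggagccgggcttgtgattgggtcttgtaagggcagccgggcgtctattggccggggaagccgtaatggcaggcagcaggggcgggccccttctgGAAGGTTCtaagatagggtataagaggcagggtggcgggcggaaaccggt
The 2 matches begin 230 and 50 bases before the start. Such letters were found in 6 of the 88 host genes (6.82%) and in 1924 of all 27305 promoters (7.05%).

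Among box H/ACA RNAs in SUM190PT the largest rise was in SNORA28, which lies in an intron of the translation factor gene EIF5. It read 3.96, 3.89 and 3.57 in vehicle and 6.08, 5.11 and 5.86 with CG-1521, a rise of 1.88 (SE 0.254, adjusted p = 0.000446), while in SUM149PT the difference was −0.03. SNORA20, in the chaperonin gene TCP1, read 5.55, 5.42 and 5.37 and then 6.96, 6.70 and 6.89, a rise of 1.40 (SE 0.141, adjusted p = 7.07e-05). Neither overlapped between the groups. SNORA7B, which has no host in the annotation, rose by 1.13 (SE 0.114). In SUM149PT the largest H/ACA rise was SNORA49 in EP400, at 1.03 (SE 0.137, adjusted p = 2.02e-05).

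A fall among H/ACA RNAs in SUM190PT was seen in SNORA80B only, in the ornithine decarboxylase gene ODC1. It read 6.67, 7.37 and 7.13 in vehicle and 6.38, 6.39 and 6.68 with CG-1521, where 1 treated array reached above the lowest control (difference −0.57, adjusted p = 0.0385). The call held in 7 of the 15 other settings tried and ended in 8, which were quantile normalisation, centring of each array on its median, a model of the groups compared only, and leaving out the pair of outlying arrays, the first or the second CG-1521 array, or the second or the third vehicle array. The adjusted p ran from 0.00545 to 0.158. ODC1 itself rose by 1.18.

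The scaRNAs were the family with the largest median change in SUM149PT, and SCARNA5, SCARNA6, SCARNA7 and SCARNA9 rose in both lines. SCARNA5 read 5.27, 5.15 and 5.48 in SUM149PT vehicle and 6.35, 6.11 and 6.13 with CG-1521, a rise of 0.90 (SE 0.107). In SUM190PT it read 6.69, 6.85 and 6.40 and then 7.63, 6.94 and 7.31, a rise of 0.64. SCARNA6, from another intron of the same host ATG16L1, read 7.28, 7.20 and 7.30 and then 8.12, 7.85 and 8.05 in SUM149PT, and rose by 0.75 there and by 0.97 in SUM190PT. The treated arrays of both RNAs lay above the controls in each line.

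SCARNA9 guides modification of the U2 spliceosomal RNA. It read 8.24, 7.91 and 8.02 in SUM149PT vehicle and 9.04, 8.88 and 9.01 with CG-1521, a rise of 0.92. In SUM190PT the vehicle arrays were spread, at 8.67, 6.65 and 8.17, and the treated arrays stood at 9.43, 8.74 and 9.42, a rise of 1.37 (adjusted p = 0.0253). Its partial copy SCARNA9L read 5.26, 4.54 and 4.39 and then 6.71, 5.98 and 6.40 in SUM190PT, a rise of 1.63 (SE 0.232, adjusted p = 0.000593).

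The box C/D RNAs in GAS5 introns were higher with CG-1521 in SUM190PT. GAS5 is a noncoding host whose introns hold guides of ribosomal RNA methylation, and 7 of them were measured. With CG-1521 6 of the 7 rose, by limma over all genes, and in all 7 the treated arrays lay above the controls, with changes from 0.64 to 1.38 and a median of 0.845. In SUM149PT 2 of the 7 rose and the median was 0.162.

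SNORD75 changed most. It read 7.92, 7.40 and 7.35 in SUM190PT vehicle and 9.03, 8.60 and 9.19 with CG-1521, a rise of 1.38 (SE 0.192, adjusted p = 0.000518), and it rose by 0.93 in SUM149PT (adjusted p = 0.00507). SNORD74 stood at 8.93, 8.97 and 8.95 and then at 9.91, 9.92 and 9.82, a rise of 0.94 (SE 0.111, adjusted p = 0.000191). SNORD44 read 8.80, 8.21 and 8.49 and then 8.98, 9.20 and 9.30, a rise of 0.66 (adjusted p = 0.0119). SNORD79 was the member of this group that missed the threshold, at 0.64 (adjusted p = 0.0531). SNORD77, SNORD78 and SNORD81 rose by 0.87, 0.71 and 0.84.

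With estradiol alone these RNAs also stood above vehicle in SUM190PT. By limma none passed without a block. With the replicate number as a block 6 of the 7 passed (adjusted p from 0.0442 to 0.0449), and SNORD74 did not (adjusted p = 0.114). Estradiol and vehicle arrays of the same number deviated together. The block also took in the other groups of the line, whose same-numbered arrays did not all do so. With estradiol SNORD44 read 9.48, 9.39 and 9.08 in SUM190PT, all above the vehicle arrays, a difference of 0.82 (SE 0.155, adjusted p = 0.0541, and 0.0442 with the block). SNORD77 read 5.10, 5.37 and 4.43 against 4.14, 3.48 and 3.42 in vehicle, a difference of 1.29. All 7 GAS5 RNAs separated in this way, with differences from 0.29 to 1.29 and a median of 0.875. Among all members 62 separated (32.3%), against 28.4% of all genes. This comparison and that of CG-1521 share the 3 vehicle arrays.

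From estradiol to both agents, SNORD74 was the GAS5 RNA that rose, by 0.44 (adjusted p = 0.0134), to 9.80, 9.64 and 9.59. SNORD44 stood at 9.02, 8.99 and 8.91 with both agents, a difference of −0.34 from estradiol that did not pass (adjusted p = 0.117), and SNORD77 stood at 3.86, 4.24 and 4.45, lower than with estradiol alone by 0.78 on the log2 scale (adjusted p = 0.0349). SNORD77 was the member that rose with CG-1521 on vehicle and fell with CG-1521 on estradiol in SUM190PT, and SNORA80B did the reverse.

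**Figure D3:**
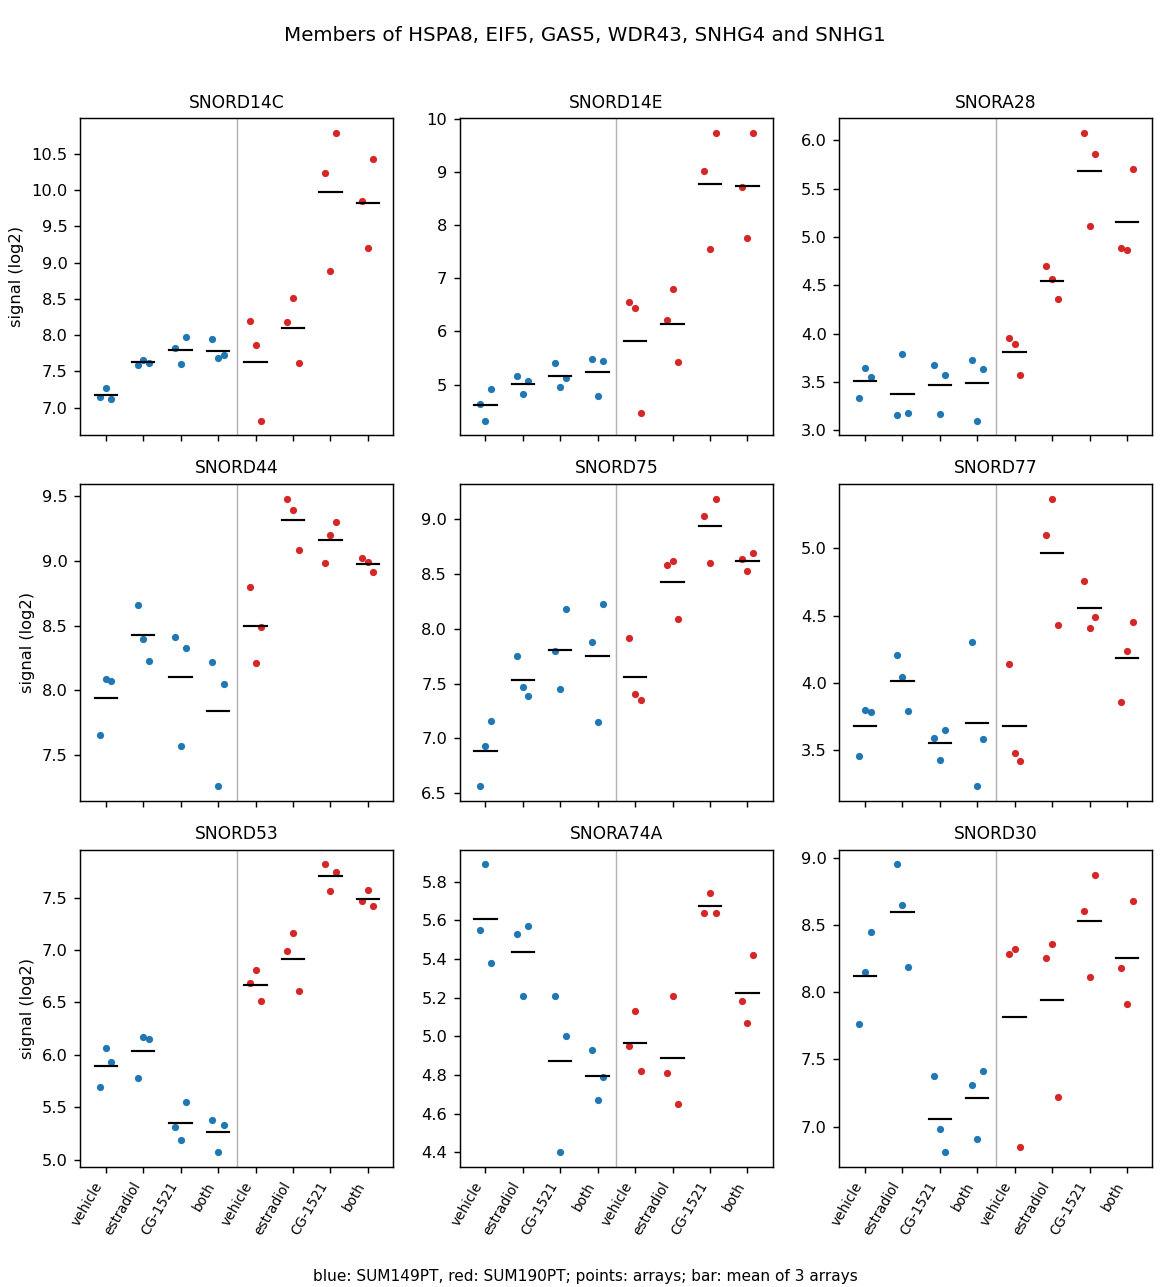
Level (log2) of SNORD14C, SNORD14E, SNORA28, SNORD44, SNORD75, SNORD77, SNORD53, SNORA74A and SNORD30 in each of the 24 arrays by group, with SUM149PT in blue and SUM190PT in red and a bar at the mean of 3 arrays. The SNORD14E vehicle arrays of SUM190PT run from 4.46 to 6.56 and its CG-1521 arrays from 7.55 to 9.74, while SNORD53 is lower with CG-1521 in SUM149PT and higher in SUM190PT.

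A smaller set fell in SUM149PT, and SNORD30 fell most. SNORD30, a guide of 28S ribosomal RNA methylation from an SNHG1 intron, read 7.76, 8.15 and 8.45 in vehicle and 7.38, 6.98 and 6.81 with CG-1521, so the groups did not overlap (−1.06, SE 0.205, adjusted p = 0.000645). In SUM190PT its difference was 0.71 (adjusted p = 0.237). SNORD28, from another SNHG1 intron, differed by 0.18 in SUM149PT (adjusted p = 0.545) and rose by 1.12 in SUM190PT (adjusted p = 0.041), from 8.20, 7.09 and 7.16 to 8.97, 7.99 and 8.85.

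Of the other falls in SUM149PT, SNORA6 was at −0.58, SNORA3B at −0.43 and SNORA55 at −0.39. SNORA6 read 5.80, 6.25 and 6.27 in vehicle and 5.73, 5.44 and 5.42 with the drug, where the highest treated array lay just below the lowest control. The SNORA55 call ended without the third CG-1521 array (−0.32), the second vehicle array (−0.30) or the third vehicle array (−0.37), and the SNORA3B call ended without the third CG-1521 array (−0.38). Both calls also ended in limma with all 24 arrays in one model (adjusted p = 0.0547 for SNORA55 and 0.105 for SNORA3B).

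SNORD53, SNORA74A and SNORA75 fell in SUM149PT and rose in SUM190PT. SNORD53 read 5.69, 6.07 and 5.93 and then 5.31, 5.19 and 5.55 in SUM149PT, and 6.69, 6.81 and 6.51 and then 7.82, 7.56 and 7.75 in SUM190PT. The changes were −0.55 (SE 0.131, adjusted p = 0.00373) and 1.04 (SE 0.142, adjusted p = 0.000464), and the difference of the responses was −1.59 (adjusted p = 9.1e-06). SNORA74A read 5.55, 5.89 and 5.38 and then 5.21, 4.40 and 5.00 in SUM149PT, and 4.95, 5.13 and 4.82 and then 5.64, 5.74 and 5.64 in SUM190PT.

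For SNORA74A the changes were −0.74 (adjusted p = 0.00347) and 0.71 (adjusted p = 0.00659), and for SNORA75 they were −0.50 (adjusted p = 0.0307) and 0.69 (adjusted p = 0.0222). The SNORA75 arrays overlapped in SUM149PT, at 4.83, 5.03 and 5.48 in vehicle against 4.95, 4.55 and 4.35. WDR43, the host of SNORD53 and a small-subunit processome protein, also fell in SUM149PT (−0.84) and rose in SUM190PT (0.64). NCL, the host of SNORA75, which encodes nucleolin, fell in SUM149PT (−0.79) and differed by 0.04 in SUM190PT (adjusted p = 0.909).

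Between the lines, 20 members rose with CG-1521 in both, which is 45.5% of those that rose in SUM149PT and 34.5% of those in SUM190PT. Over all genes these shares were 24.4% and 42.3%. The 20 were SCARNA5, SCARNA6, SCARNA7, SCARNA9, SNORA5A, SNORA21, SNORA22, SNORA49, SNORA57, SNORA67, SNORA71A, SNORD14C, SNORD14E, SNORD38A, SNORD45A, SNORD54, SNORD58A, SNORD74, SNORD75 and SNORD116-15. The test of the difference in response called 4 members with a higher response in SUM149PT and 34 with a lower one, 38 in all, where 9.01% of all genes were called higher and 11.6% lower (20.6% together). The lower ones numbered 22 or 20 without the second or the third SUM149PT vehicle array. The median difference was −0.247. SNORD116-1, SNORD116-21, SNORD15B and SNORA80B had the higher response in SUM149PT, and SNORD14E (−2.40), SNORA28 (−1.91) and SNORD30 (−1.77) led the lower ones. Leaving out the pair of outlying SUM190PT arrays gave 3 higher and 26 lower. Without the second vehicle array of SUM149PT 24 were called, as without the third vehicle array.

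**Figure D4:**
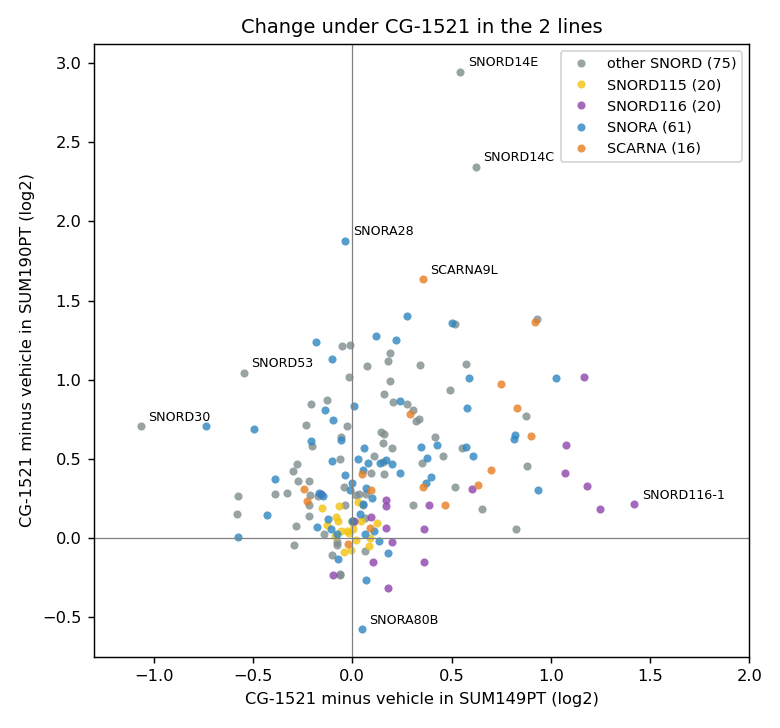
Change with CG-1521 (log2 difference from vehicle) of each of the 192 small RNA genes in SUM149PT (horizontal axis) and SUM190PT (vertical axis), coloured by family. SNORD14E at 2.94 and SNORD14C at 2.35 stand at the top, and SNORD116-1 lies at 1.42 in SUM149PT and 0.21 in SUM190PT.

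Host genes mostly did not move with their small RNAs in SUM149PT. Of 70 measured hosts 8 rose and 30 fell with CG-1521 in SUM149PT. Of the 21 members with a measured host that rose, the host rose in 0 cases, fell in 9 and did not pass the test in 12. SCARNA22 rose by 0.63 while its host NSD2, a histone methyltransferase, fell by 0.95 on the log2 scale. SNORD8 rose by 0.88 while CHD8 fell by 0.43, SCARNA9 rose by 0.92 while CEP295 fell by 0.40, and SNORA5A and SNORA5C rose by 0.59 and 0.37 while TBRG4 fell by 0.67. Across the 91 members the changes of member and host correlated at 0.0313 (Pearson) and 0.0645 (Spearman), a description across genes of which some share a host.

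In SUM190PT 11 of 70 hosts rose and 5 fell. Of the 36 members with a measured host that rose, the host rose in 9, fell in 2 and did not pass in 25, and the correlations over the 91 were 0.247 and 0.353. SCARNA10 rose by 0.78 while its host NCAPD2, a condensin subunit, fell by 1.47 on the log2 scale, and SNORD59A rose by 1.21 while ATP5F1B of the ATP synthase fell by 0.43. Of members whose host start is shown, SNORD50A of SNHG5 rose by 1.09 (adjusted p = 0.00205) and SNORD35A of RPL13A by 0.50 (adjusted p = 0.0442) in SUM190PT. Of the 33 members in ribosomal protein genes 7 rose and 3 fell in SUM149PT, and 12 rose and 0 fell in SUM190PT, while of the 12 such hosts measured 1 rose and 1 fell in each line.

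Transcripts of the proteins that assemble and carry these RNAs went the other way in SUM149PT. CG-1521 lowered both box C/D core protein transcripts measured, FBL of the methyltransferase by 0.75 (SE 0.089, adjusted p = 6e-06) and NOP58 at −0.56. It also lowered those of 3 of 4 H/ACA core proteins, with DKC1 of the pseudouridine synthase at −0.77 (SE 0.077), NHP2 at −0.61 and GAR1 at −0.35. Protein levels were not measured. Of 10 assembly factors 8 fell, led by NOLC1 (−0.81), SHQ1 (−0.79), NUFIP1 (−0.72) and NAF1 (−0.66). NOLC1, a chaperone of snoRNPs, read 10.07, 9.99 and 10.02 in vehicle and 9.25, 9.18 and 9.22 with the drug. Of 14 Cajal body and cap factors 10 fell and 2 rose, with GEMIN4 at −1.07, GEMIN5 at −0.97 and WRAP53, which carries scaRNAs to Cajal bodies, at −0.84. The median changes of these 4 lists were −0.657, −0.482, −0.607 and −0.638, beside −0.002 for all genes.

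Transcripts of enzymes that trim and degrade snoRNAs fell in 12 of 16 cases and rose in 2 in SUM149PT (median −0.436). The falls included the exosome subunit genes EXOSC2 at −1.15, EXOSC5 at −0.94 and EXOSC9 at −0.71, and DBR1 of the lariat debranching enzyme at −0.69. Those of nucleolar factors of ribosome synthesis fell in 21 of 25 cases with none higher (median −0.6). These falls included UTP20 at −1.74, TCOF1 at −1.15, BOP1 at −1.08 and NOP14 at −0.88. UTP20 read 7.46, 7.82 and 7.88 in vehicle and 6.11, 5.80 and 6.01 with CG-1521. Of 5 noncoding hosts 2 rose, SNHG29 by 0.52 and ZFAS1 by 0.47.

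In SUM190PT few of these genes were called. FBL fell by 0.63 on the log2 scale and NOP58 did not pass. NOP10 of the H/ACA core rose by 0.51. Of the assembly factors ZNHIT3 rose by 0.44 and PIH1D1 fell by 0.54, of the Cajal body list ZPR1 (0.69), USPL1 (0.56) and SART3 (0.38) rose, of the trimming enzymes EXOSC1 rose by 0.68, and of 25 nucleolar factors WDR43 (0.64) and EMG1 (0.56) rose and UBTF fell (−0.49). The noncoding hosts EPB41L4A-AS1 (1.24) and ZFAS1 (0.61) rose. The lists' medians lay between −0.145 and 0.396, beside −0.048 for all genes.

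Among other structured small RNAs those that passed the test were higher. Of 18 measured 7 rose in SUM149PT and 0 fell (median 0.258), where 14.4% of all genes rose and 19.9% fell. In SUM190PT 6 of the 18 rose and 0 fell (median 0.289), where 8.32% of all genes rose and 8.26% fell. RMRP, the RNA of RNase MRP, read 11.10, 10.86 and 10.95 in SUM149PT vehicle and 11.58, 12.01 and 11.62 with CG-1521 (0.77), and rose by 0.95 in SUM190PT. RNU11, of the minor spliceosome, rose by 0.75 and by 1.50. RNU4-2 (0.93) and RPPH1 (0.75) rose in SUM149PT, and RNU5B-1 (1.16) and VTRNA1-3 (0.80) in SUM190PT. Of the 173 microRNA genes 16 rose and 3 fell in SUM149PT, and 6 rose and 3 fell in SUM190PT, with medians of 0.021 and −0.003.

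Few cell type markers were called. In SUM149PT CDH1 rose among 5 epithelial markers, CD14 fell among 4 leukocyte markers, DCN fell among 6 fibroblast markers, and 0 of 5 endothelial markers were called. In SUM190PT KRT8 and KRT19 fell and 0 of the 15 leukocyte, fibroblast and endothelial markers were called. Their part in the small RNA changes was not tested.

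When CG-1521 was added to estradiol, rises and falls in SUM149PT were of closer number. There 36 members rose (18.8%) and 28 fell (14.6%) from estradiol to both agents, where 16.5% of all genes rose and 20.4% fell (36.9% called). The median member difference was 0.018 and turned to −0.017 under quantile normalisation and −0.002 under centring. In the second array with both agents the median member deviated by −0.152 from its group mean, and without that array 42 members rose and 17 fell, with a median of 0.053. SCARNA genes rose in 6 cases and fell in 0, while box C/D RNAs outside the imprinted regions rose in 4 of 69 cases and fell in 18. Of the 33 members in ribosomal protein genes 2 rose and 13 fell. SNORD30 fell by 1.38, SNORA75 by 1.08 and SNORD4A by 0.96 on the log2 scale.

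The rises with CG-1521 on vehicle and on estradiol in SUM149PT, which use separate arrays, shared 26 members, 59.1% of the former and 72.2% of the latter, and over all genes the shares were 78.7% and 68.9%. The falls shared 9 members, 81.8% of the former and 32.1% of the latter, where over all genes the shares were 86.0% and 83.8%.

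In SUM190PT 42 members rose (21.9%) and 11 fell (5.73%) from estradiol to both agents, where 12.5% of all genes rose and 13.2% fell (25.7% called), with medians of 0.064 and 0.071. SNORA genes rose in 21 of 61 cases and fell in 2, SNORD genes rose in 15 of 115 and fell in 9, and SCARNA genes rose in 6 of 16 and fell in 0. SNORD14E rose by 2.59, SNORD14C by 1.73 and SNORA3A by 1.42. SNORD14E went from 6.22, 6.79 and 5.43 with estradiol to 8.72, 7.76 and 9.73 with both agents, again without overlap. Without the third array with both agents SNORD14E was at 2.10 (adjusted p = 0.0592) and SNORD14C at 1.42 (adjusted p = 0.0774), and SNORD14C also lost its call without the first such array (1.71) or the third estradiol array (1.48).

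The largest falls in SUM190PT in that comparison were box C/D RNAs. SNORD45B, from an intron of RABGGTB, read 6.99, 5.96 and 6.18 in vehicle, 7.65, 7.85 and 7.74 with estradiol, 7.25, 7.55 and 7.07 with CG-1521 and 6.73, 6.89 and 5.70 with both. The estradiol and CG-1521 arrays lay above the vehicle arrays, but neither difference passed the test without a block (1.37, adjusted p = 0.0541, and 0.91, adjusted p = 0.0532). With the replicate block that of estradiol passed (adjusted p = 0.0442). From estradiol to both agents it fell by 1.31 on the log2 scale (SE 0.297, adjusted p = 0.00775). SNORD1A fell by 1.01 and SNORD49A by 1.00.

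The rises in SUM190PT with CG-1521 on vehicle and on estradiol shared 21 members, 36.2% and 50.0% of the 2 lists (51.9% and 34.5% over all genes). Leaving out the pair of outlying arrays, 40 members rose and 15 fell from estradiol to both agents. Without the first array with both agents 17 rose and 6 fell, and without the third such array 26 rose and 10 fell. Without the first estradiol array 23 rose and 9 fell, and without the second 28 rose and 6 fell. With all 24 arrays in one model 44 rose and 18 fell.

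Estradiol alone gave no call among the members by limma in either line. In SUM149PT 0 of 192 were called (0.0% of all genes), and the median difference was 0.103 beside −0.01 for all genes. An unadjusted p of 0.05 was passed by 39 of the 192 members and by 845 of all 18417 genes. The smallest p-values were those of SNORA14B (0.55) and SNORD14C (0.44), each with an adjusted p of 0.863. The 7 GAS5 RNAs had a median of 0.424 and the 33 members in ribosomal protein genes 0.325.

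In SUM190PT 0 of 192 were called (0.00543% of all genes, 1 gene), and the median was 0.181 beside −0.036. Unadjusted, 56 of the 192 members passed and 4531 of all 18417 genes. Same-numbered arrays of these 2 groups deviated together, and with the replicate number as a block 20 members were called, 19 higher and 1 lower, where 1.39% of all genes were called higher and 1.43% lower. SNORA80B was the lower one: it read 6.14, 5.98 and 6.17 with estradiol, all below the vehicle arrays, a difference of −0.96 (adjusted p = 0.0541 without the block and 0.0442 with it). SNORD58A read 4.96, 4.90 and 4.76 in vehicle and 5.86, 5.43 and 5.42 with estradiol, a difference of 0.70 with the same pair of adjusted p-values. Without the first vehicle array 33 members were higher and 5 lower (5.29% and 6.99% of all genes), and with all 24 arrays in one model 37 and 2 (7.38% and 8.86% of all genes). Leaving out the pair of outlying arrays, without a block, gave 0 called members and 0 called genes.

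Estradiol added to CG-1521 gave 0 calls among members in both lines (0.0% of all genes in each), with medians of 0.005 and −0.062. Unadjusted, 14 of 192 members passed in SUM149PT (1156 of all 18417 genes) and 17 of 192 in SUM190PT (889 of all 18417 genes).

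Whether the drug response differed with estradiol was tested as a comparison added after the values had been seen. In SUM149PT 0 of 192 members were called (0.0% of all genes), with a median of −0.112. Unadjusted, 33 of the 192 passed beside 1046 of all 18417 genes. In SUM190PT 5 of 192 were called (2.6%), against 0.516% of all genes. The response with estradiol minus that without it was −2.22 for SNORD45B (SE 0.419), −1.67 for SNORD49A, −1.16 for SNORD78 (adjusted p = 0.0498), −1.06 for SNORD58A and 1.32 for SNORA80B. With the replicate number as a block 0 were called, and 64 of the 192 passed unadjusted beside 4551 of all 18417 genes. The GAS5 RNAs had a median of −1.197.

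The lines also differed before treatment. In vehicle 45 members were higher in SUM149PT and 39 in SUM190PT, where 24.5% of all genes were higher and 22.1% lower (46.7% called). The SNORD116 RNAs included the largest differences: 9 of 20 were higher in SUM149PT, 5 of them at least 2-fold, and 0 lower. Of the SNORD115 genes, which read at the bottom of the scale in both lines, 0 were called. SNORD116-21 was higher by 4.29 (SE 0.163, adjusted p = 8.53e-16), SNORD116-15 by 3.08 (adjusted p = 1.62e-10), SNORD116-14 by 2.98, SNORD116-20 by 2.50 and SNORD116-24 by 1.55. The SNORD116-21 arrays of SUM190PT read at the bottom of the scale, and with no measure of background in the deposited values its difference may be understated. These 5 copies are among those that CG-1521 raised in SUM149PT.

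The U13 RNA SNORD13, which acts in 18S maturation and has its own promoter, read 8.75, 8.52 and 9.01 in SUM149PT vehicle and lay 1.55 above SUM190PT (adjusted p = 1.32e-06). CG-1521 raised it in SUM149PT by 0.46 (adjusted p = 0.0223), to 9.25, 9.06 and 9.33, and the difference in SUM190PT was 0.52 (adjusted p = 0.155). SNORD13P3, a pseudogene copy, was higher in SUM149PT by 1.93 and SNORD28 by 1.76. Lower in SUM149PT were SNORD59B (−2.45, SE 0.271, adjusted p = 7.31e-08), SCARNA5 (−1.35), SNORD96A (−1.17), SNORA71D (−1.13), SNORD94 (−1.09) and SNORD96B (−1.08). SNORD59B read 3.99, 4.09 and 4.89 in SUM149PT and 6.65, 6.68 and 6.98 in SUM190PT.

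By family, SNORA genes were higher in SUM149PT in 10 of 61 cases and lower in 19, and 5 of the 7 GAS5 RNAs were lower. Of the protein lists 8 of 10 assembly factors, 10 of 14 Cajal body factors, 11 of 16 trimming enzymes and 15 of 25 nucleolar factors were higher in SUM149PT vehicle.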

How the data were processed

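The authors deposited log2 values per probe set made with RMA in Affymetrix Expression Console, per the submitters' processing notes, with no versions given in the sources used here. The table held 33297 probe sets on 24 arrays (8 groups of 3). Of these 19460 name a single gene, 1754 several and 12083 none in the platform annotation. The single-gene probe set with the highest mean was kept for each of 18417 genes, and 76 probe sets that name a small RNA together with other genes were left out of the tests. Array number, not read depth, limits the precision.

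Groups were compared with limma 3.58.1 (R 4.3.3; lmFit and eBayes, two-sided, Benjamini-Hochberg over all 18417 genes, threshold 0.05), per line on 12 arrays, or on all 24 for comparisons between lines. "Rose", "fell" and "called" mean past this threshold, and differences are on the log2 scale. Tables and plots used Python 3.11.15, pandas 2.3.3, numpy 2.4.6 and matplotlib 3.10.9, and the fits were tested on simulated data.

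Named members were the 6 largest rises and falls with separate arrays for CG-1521 against vehicle and for the lines in vehicle, 3 and 3 elsewhere, the 5 largest pooled SDs, and a list of U14, U13, GAS5, SNHG1 and Cajal body RNAs. Where none passed, the 2 smallest p-values were taken. Members named beside their hosts, SNORA80B, SNORD45B and the members shared between comparisons were chosen after their values were seen. The members and the 12 gene lists (114 of 141 genes measured) were chosen with earlier results of these data known. A host is the smallest protein-coding or lncRNA gene of RefSeq GRCh38.p14 whose span holds the member, without regard to strand. Whether the member lies in an intron of that gene was not checked. All 192 members matched, and sequences come from RefSeq GRCh38.p14.

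Replicate numbers were taken to pair arrays where all 3 same-numbered pairs deviated together (r above 0.1): in SUM190PT for estradiol against vehicle (0.443, 0.229 and 0.729) and for both agents against CG-1521 (0.518, 0.434 and 0.502). The block itself took in all groups of a line. These included CG-1521 and vehicle in SUM190PT, whose pairs did not all deviate together (−0.010, 0.101 and 0.055). Nor did those of both agents and estradiol there (−0.107, 0.236 and 0.071). The r of 0.729 is that of the pair of outlying arrays, and no block was fitted without them. Alternatives were quantile normalisation, centring, a filter on the dimmest 25% of genes, the mean of probe sets, other sets of arrays in the model, a variance trend, the block and leaving out each array.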

Additional observations from a re-analysis of the deposited data

Results flagged for a closer look

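The response to CG-1521 differed between the lines for 38 of the 192 small RNAs by the interaction test (limma, adjusted p under 0.05). Over all genes 20.6% were called by the same test, so the count alone does not set the small RNAs apart. The response of SUM149PT minus that of SUM190PT was 1.21 for SNORD116-1, 1.06 for SNORD116-21 and 0.76 for SNORD15B, and −2.40 for SNORD14E, −1.91 for SNORA28 and −1.77 for SNORD30, each on the log2 scale. SNORD15B read 8.08, 7.69 and 8.14 in SUM149PT vehicle and 8.67, 8.61 and 9.09 with CG-1521. Its difference between lines lost the call under centring (0.68), with only the 4 groups compared in the model and without several single arrays (0.58 to 0.78).

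Probe sets that name several genes were outside the comparisons above. Of 6 such sets that name 1 or more SNORD116 copies with other genes or copies, 5 had all 3 CG-1521 arrays above all 3 vehicle arrays in SUM149PT, with differences from 0.22 to 1.58 and a median of 1.2 over the 6. In SUM190PT 0 of the 6 separated, and the median was 0.17.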

How the results depend on the processing

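Apart from leaving out single arrays, the counts of called members kept within 1.5 times of the reported value in 81 combinations of comparison and alternative. In 2 they did not. These were estradiol against vehicle in SUM190PT, with 39 calls with all 24 arrays in one model and 20 with the replicate block. The 81 include the estradiol comparisons whose count was 0 and stayed 0, which says little about stability. In the added comparison of the drug response with and without estradiol in SUM190PT the block gave 0. The block moved no other count of members by more than 1.5 times, and the contrast of the lines in vehicle could not be fitted with it. Leaving out single arrays gave 35 to 66 calls for CG-1521 in SUM190PT, 23 to 50 for both agents against estradiol in SUM190PT, 0 to 38 for estradiol in SUM190PT, and 24 to 45 for the difference between the lines, against 41 to 51 for CG-1521 in SUM149PT. Apart from leaving out single arrays, named members kept their side of the threshold in 437 combinations, 6 lost the call, 4 gained it and 0 reversed, and with a single array left out these numbers were 351, 19, 2 and 0. Centring moved the split for both agents against estradiol in SUM190PT from 42 higher and 11 lower to 32 and 14. With 3 arrays a group, differences well under the members' spread were not detectable.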

Other observations

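Of the 76 probe sets that name a small RNA together with other genes, 63 held distinct values. In SUM149PT all 3 CG-1521 arrays lay above the vehicle arrays in 17 of the 63 and below in 6 (median 0.06), and in SUM190PT in 29 and 3 (median 0.51). The 3 sets that each name GAS5 and 1 of its intronic RNAs (SNORD47, SNORD76 and SNORD80) had medians of 0.53 in SUM149PT and 0.91 in SUM190PT, and separated upward in 2 and 3 of 3 cases. The 6 sets naming SNHG1 with other genes had medians of −0.62 and 1.11, and in SUM149PT 3 of them separated downward. These values are descriptions without a test, since the sets share genes.

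Other structured small RNAs include the RNAs of RNase MRP and the minor spliceosome. From estradiol to both agents in SUM190PT 9 of 18 rose and 0 fell, where 12.5% of all genes rose and 13.2% fell.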
